A study of Mus musculus with 6 samples.

Results

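WNT ligands, their receptors and the secreted proteins that block them were followed in CD45-negative cells sorted from YUMM1.7 melanomas. They were the rows of the deposited table whose symbols name a WNT ligand, a Frizzled receptor, an SFRP, a Dickkopf (DKK) protein or an R-spondin, together with Frzb, Wif1, Axin1, Axin2, Nkd1, Nkd2, Lrp5, Lrp6, Ror1, Ror2, Znrf3, Rnf43, Lef1 and Tcf7. This gave 55 genes of 23940. YUMM1.7 is a mouse melanoma line with an activating Braf mutation, which both groups share because every tumour was grown from it in C57BL/6 mice. RNA was sequenced from 3 tumours without treatment (pre-treatment) and from 3 residual tumours during treatment with a BRAF inhibitor (on-BRAFi). Which inhibitor was used, at what dose and for how long was not given in the sources used here. CD45 is the leukocyte antigen encoded by Ptprc, and the sorted fraction could hold tumour cells along with stromal cells such as fibroblasts and the cells of blood vessels.

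WNT proteins are secreted lipid-modified signals. In the canonical branch a WNT binds a Frizzled receptor and the co-receptor LRP5 or LRP6, which stops the AXIN and APC complex from destroying beta-catenin, and beta-catenin then switches on genes together with TCF and LEF factors. SFRP proteins bind WNTs outside the cell, and DKK1 blocks the LRP co-receptors. R-spondins keep Frizzled receptors at the surface by drawing off the ligases ZNRF3 and RNF43. In human melanoma, beta-catenin signalling is tied to the melanocyte programme, and WNT5A, which mostly signals without beta-catenin, is known for its link to invasion and to resistance to BRAF inhibitors.

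Values are FPKM, fragments per kilobase of transcript scaled to the mapped fragments of a library, which is a level per length and can be compared between genes. A gene rose or fell where limma gave a Benjamini-Hochberg adjusted p under 0.05 over all 12075 genes with a mean of at least 1 FPKM. Fold changes are on-BRAFi over pre-treatment on the log2(FPKM + 0.1) scale, which understates the change of low genes. Means are given ± SD with n = 3 tumours a group, and fold changes ± SE. Summed over all genes, a library held between 562041 and 921297 FPKM before treatment and between 414834 and 554684 FPKM on the inhibitor. Short RNA genes accounted for 23.0% to 40.5% of these sums. The label melanoma was checked against 10 melanocyte markers: Dct, Tyrp1 and Mlana were listed at 0 in all 6 libraries, Sox10 was at 0.0245 ± 0.00716 and 0.0658 ± 0.0554 FPKM, and Mitf and Tyr were the most abundant. Ptprc was between 0.118 and 2.18 FPKM.

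The secreted WNT inhibitors Frzb, Sfrp2 and Sfrp4 were higher in the residual tumours, by 4.16-fold to 18.3-fold, and the receptor genes Fzd4, Lrp5 and Lrp6 and the feedback gene Axin2 were higher too. Of the 55 members, 19 reached the mean of 1 FPKM and were tested, 7 rose and none fell. Over all genes tested, 8.76% rose and 10.3% fell. The tested members had a median log2 fold change of 0.62, against -0.0063 over all genes tested. The filter lets in a gene through the group in which it is high, as with Axin2, Sfrp2 and Fzd6, whose means were below 1 FPKM before treatment, so the count and the median only describe the tested members. Of the 16 tested members with a pre-treatment mean of at least 1 FPKM, 5 rose. When libraries were rescaled to an equal sum, the median log2 fold change of all genes shifted upward by 0.53. Then 16.6% of genes rose and 4.29% fell (2009 and 518 genes, against 1058 and 1249), and the same 7 members passed. Without on-BRAFi replicate 1, 4 members rose.

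**Figure D1:**
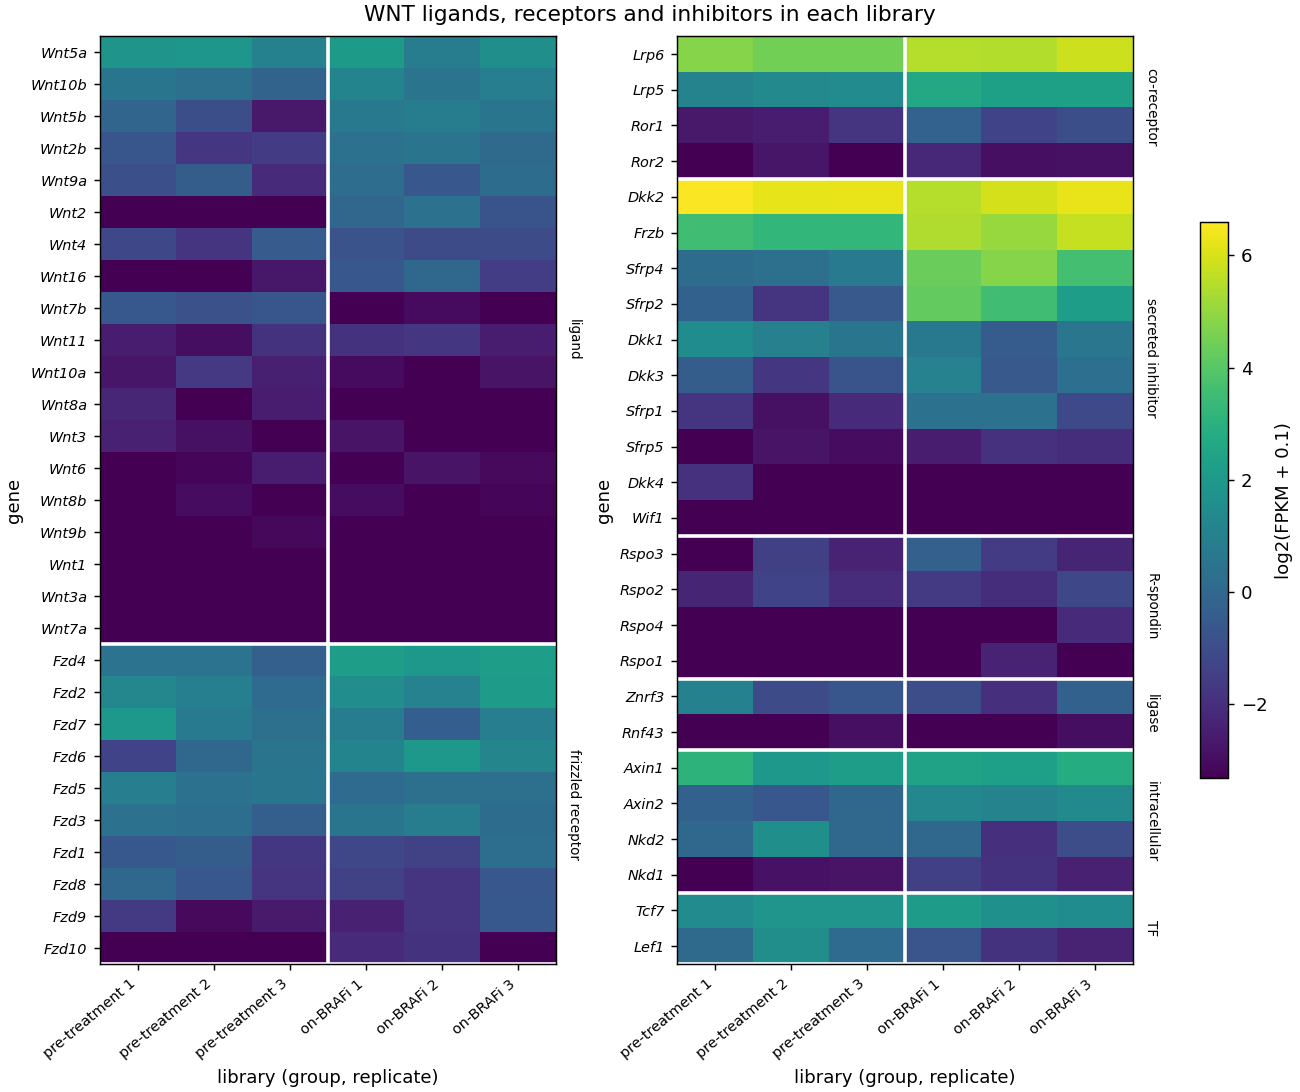
Heat map of log2(FPKM + 0.1) for the 55 members (rows, grouped by role and ordered by mean within a role) in the 6 libraries (columns, pre-treatment left of the white line, on-BRAFi right of it). Dkk2, Frzb and Lrp6 are bright in every library, Sfrp2 and Sfrp4 are brighter in the 3 on-BRAFi libraries than in the others, and most ligands and R-spondins are dark throughout; ligase stands for Znrf3 and Rnf43, and TF for transcription factor.

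The promoters of the members that rose are shown to let their sequence be read beside the values that follow. RefSeq's promoter table (build GRCm38.p6) matched 37 of the 55 members and 4 of the 7 that rose. The 250 bases before the annotated start are given 5′ to 3′ on the gene's strand, with every CpG dinucleotide in capitals. They lie at chr2:80447397-80447646 on the minus strand for Frzb, chr3:83766071-83766320 on the plus strand for Sfrp2, chr7:89404116-89404365 on the plus strand for Fzd4 and chr11:108920099-108920348 on the plus strand for Axin2.
Frzb: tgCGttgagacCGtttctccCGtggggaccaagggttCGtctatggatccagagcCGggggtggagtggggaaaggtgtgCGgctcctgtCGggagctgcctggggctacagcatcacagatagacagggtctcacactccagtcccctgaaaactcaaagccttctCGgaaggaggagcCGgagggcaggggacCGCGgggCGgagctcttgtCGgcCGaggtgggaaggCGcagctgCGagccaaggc
Sfrp2: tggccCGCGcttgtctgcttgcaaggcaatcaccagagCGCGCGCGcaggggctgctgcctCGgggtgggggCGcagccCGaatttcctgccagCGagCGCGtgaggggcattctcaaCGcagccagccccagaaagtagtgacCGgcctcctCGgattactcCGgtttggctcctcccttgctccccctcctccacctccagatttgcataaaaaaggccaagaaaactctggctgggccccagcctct
Fzd4: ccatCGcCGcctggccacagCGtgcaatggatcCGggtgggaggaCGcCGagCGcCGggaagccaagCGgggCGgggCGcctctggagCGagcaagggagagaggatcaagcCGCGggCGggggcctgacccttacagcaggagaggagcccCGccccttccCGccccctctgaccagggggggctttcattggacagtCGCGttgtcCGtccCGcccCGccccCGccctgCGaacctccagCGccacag
Axin2: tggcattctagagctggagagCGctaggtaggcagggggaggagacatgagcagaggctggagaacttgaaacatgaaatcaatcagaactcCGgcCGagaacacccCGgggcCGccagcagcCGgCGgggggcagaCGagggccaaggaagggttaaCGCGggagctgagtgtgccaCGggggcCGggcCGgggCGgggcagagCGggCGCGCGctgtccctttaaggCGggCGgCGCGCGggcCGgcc
These windows are rich in CpG. Frzb and Sfrp2 each held 16 CpG dinucleotides, Fzd4 held 25 and Axin2 held 24, against a median of 6 over all 32851 promoters of the table and of 17 over the promoters of the members. SFRP promoters are known in human tumours as frequent sites of CpG methylation, which was not measured here. The core sequence of TCF and LEF sites, written CTTTGAA or CTTTGAT and searched on both strands, was in none of the 4 windows and in 7.48% of all promoters. Among the members it was found before Dkk1, Wnt11 and Wnt5b. The other motifs searched on both strands were an AP-1 site (TGANTCA, in 6.75% of all promoters), an E-box (CACGTG, in 6.02%) and a TATA box (TATAAA, in 12.4%), and none of them was in the 4 windows. That these letters are absent says nothing of the factors.

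Among the secreted inhibitors, Frzb (also called SFRP3), Sfrp2 and Sfrp4 rose together. These are decoy proteins that carry a Frizzled-like domain and bind WNTs, and fibroblasts are a known source of them. Frzb was at 11.8, 9.37 and 9.35 FPKM before treatment and at 42.8, 33.9 and 52.3 FPKM on the inhibitor. Every treated tumour stood well above every untreated one, and Frzb rose 4.16-fold (log2 fold change 2.06 ± 0.22, limma, adjusted p = 0.00208). Sfrp4 was at 1.03, 1.17 and 1.54 FPKM before treatment and at 20.2, 28.0 and 12.3 FPKM on it. The groups lay far apart, with on-BRAFi replicate 3 the lowest of the treated tumours, and the gene rose 14.4-fold (3.85 ± 0.34, adjusted p = 0.00128). Sfrp2 was at 0.741, 0.185 and 0.590 FPKM before treatment and at 18.3, 11.7 and 4.59 FPKM on it. It was again lowest among the treated tumours in replicate 3, and it rose 18.3-fold (4.20 ± 0.63, adjusted p = 0.00614). All 3 genes passed the threshold whichever library was left out.

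Fibroblast markers were also compared between the groups. Of 12 markers, 7 rose and none fell. Their summed level was 1271, 1326 and 1801 FPKM before treatment and 9706, 9950 and 9235 FPKM on the inhibitor. None of the 12 was listed at 0 in any library, and Col3a1, Dcn and Col1a2 were the most abundant. Pdgfra, the receptor that defines many fibroblasts, had overlapping groups, at 135 ± 30.4 before treatment and 154 ± 8.88 FPKM on the inhibitor, and missed the threshold. Fap, at 42.9 ± 3.94 and 43.3 ± 5.38 FPKM, and Pdpn, at 73.7 ± 10.9 and 55.5 ± 6.87 FPKM, also overlapped and did not pass. Pdgfrb and Thy1 did not pass either, with all treated tumours higher. In the sorted mixture, fewer or more cells of a type and less or more RNA per cell cannot be told apart, and the part of fibroblasts in the result was not tested.

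Sfrp1 and Sfrp5, the other members of that family, were under the filter. Sfrp1 was at 0.178, 0.0356 and 0.133 FPKM before treatment and at 1.25, 1.19 and 0.351 FPKM on the inhibitor. Its groups did not overlap, but in the fit without the filter it missed the threshold (adjusted p = 0.0692). Sfrp5 was at most 0.168 FPKM in any library. Wif1, a WNT-binding inhibitor with no Frizzled-like domain, was listed at 0 in all 6 libraries.

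Of the DKK genes, Dkk2 was by far the most abundant and did not pass the test. Dkk2 was at 94.3, 75.8 and 77.8 FPKM before treatment and at 45.2, 62.6 and 77.5 FPKM on the inhibitor. The groups overlapped, since on-BRAFi replicate 3 was as high as the lower untreated tumours. The log2 fold change was -0.45 with a 95% interval from -0.998 to 0.10 (adjusted p = 0.223), and it was 0.10 with libraries rescaled to an equal sum. Dkk1 was at 1.99 ± 0.6995 and 1.18 ± 0.470 FPKM, with overlapping groups (log2 fold change -0.73, interval from -1.89 to 0.43). Dkk3, a divergent member of the family, was at 0.451 ± 0.232 and 1.25 ± 0.732 FPKM, and Dkk4 was above 0 in pre-treatment replicate 1 alone, at 0.165 FPKM.

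The make-up of the inhibitor transcripts is described by each gene's share of their summed level. Dkk2 and Dkk3 were counted among the inhibitors by family, and whether they block WNT signals in these tumours was not tested. Summed over the 10 inhibitors, the level was 111.6, 88.7 and 91.3 FPKM before treatment and 131, 139 and 149.7 FPKM on the inhibitor. Dkk2 held 84.5%, 85.4% and 85.2% of this sum before treatment and 34.4%, 45.1% and 51.8% on it. Frzb held 10.5% ± 0.185 before treatment and 30.6% ± 5.51 on the inhibitor. Sfrp4 held 1.31% ± 0.382 and then 14.6% ± 6.00, and Sfrp2 held 0.506% ± 0.258 and then 8.47% ± 5.42. For each of these 4 genes, and for Dkk1, Sfrp1 and Sfrp5, the shares did not overlap between the groups. The shares of Dkk3 and Dkk4 overlapped. Shares of a sum depend on each other, so higher Frzb, Sfrp4 and Sfrp2 lower the share of Dkk2. The level of Dkk2 itself overlapped between the groups. A share within a library does not depend on how libraries are scaled to each other, and no test was made on it.

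**Figure D2:**
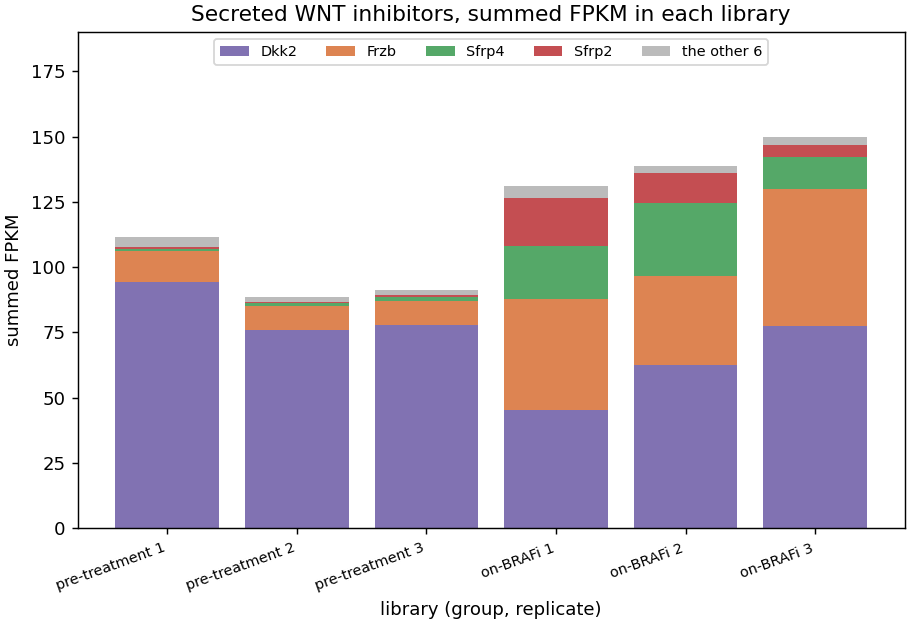
Stacked bars of FPKM for the secreted WNT inhibitors in each of the 6 libraries, with the bar height the summed FPKM of the 10 genes. Dkk2 fills most of each pre-treatment bar and between 34.4% and 51.8% of the on-BRAFi bars, where Frzb, Sfrp4 and Sfrp2 fill most of the rest.

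The LRP co-receptors and one Frizzled receptor were higher on the inhibitor. Lrp6, the main co-receptor of canonical signalling, was at 27.6, 22.1 and 22.4 FPKM before treatment and at 45.5, 44.2 and 58.0 FPKM on it. The groups did not overlap, and Lrp6 rose 2.04-fold (log2 fold change 1.03 ± 0.19, limma, adjusted p = 0.0118). Its relative Lrp5 was at 2.08, 2.45 and 2.66 FPKM before treatment and at 6.21, 4.86 and 4.87 FPKM on it. Lrp5 was several times lower than Lrp6 in every library and rose 2.16-fold (1.11 ± 0.24, adjusted p = 0.0204). With any single library left out Lrp5 missed the threshold, with adjusted p between 0.0541 and 0.0902. Ror1 and Ror2, receptors for WNT5A, were under the filter. Ror1 was at 0.0597, 0.0734 and 0.181 FPKM before treatment and at 0.780, 0.298 and 0.426 FPKM on the inhibitor, without overlap and without passing (adjusted p = 0.0941 in the fit without the filter). Ror2 was at most 0.117 FPKM.

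Fzd4, a Frizzled that also serves as the receptor for Norrin in blood vessels, was the only Frizzled gene of the 6 tested that passed. It was at 1.27, 1.26 and 0.724 FPKM before treatment and at 4.57, 3.77 and 4.47 FPKM on the inhibitor. The groups lay clear of each other, and Fzd4 rose 3.77-fold (1.92 ± 0.33, adjusted p = 0.0102). Without on-BRAFi replicate 1 the adjusted p was 0.0519. Endothelial markers were also compared between the groups. Of 12, 11 were tested, 7 rose and none fell. Their summed level was 60.0, 46.1 and 56.2 FPKM before treatment and 122, 151 and 98.1 FPKM on the inhibitor. Cldn5 alone of these markers was listed at 0 in any library, and Pecam1, Eng and Cdh5 were the most abundant. The part of endothelial cells in the Fzd4 result was not tested.

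The other Frizzled receptors did not pass. Fzd6 was at 0.304, 0.924 and 1.30 FPKM before treatment and at 2.12, 3.82 and 2.21 FPKM on the inhibitor. Its groups did not overlap, but the untreated tumours spread widely (log2 fold change 1.71 ± 0.58, adjusted p = 0.0858). It passed when libraries were rescaled to an equal sum with short RNA genes left out, as did Fzd2 (adjusted p = 0.0270 and 0.0425). That setting was added after seeing the data. In it 3799 of all 12075 genes tested rose, and their median log2 fold change shifted upward by 0.58. Fzd2 was at 1.74 ± 0.675 and 3.06 ± 1.23 FPKM, Fzd3 at 1.02 ± 0.279 and 1.38 ± 0.363, Fzd5 at 1.45 ± 0.290 and 1.11 ± 0.0819, and Fzd7 at 2.21 ± 1.43 and 1.40 ± 0.626. Fzd7 was the most abundant Frizzled before treatment by mean and Fzd4 on the inhibitor, but neighbouring Frizzled genes lay within each other's spread before treatment. Fzd1, Fzd8, Fzd9 and Fzd10 were under the filter, and of these only Fzd1 reached 1 FPKM in a library, at 1.11 FPKM in on-BRAFi replicate 3.

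**Figure D3:**
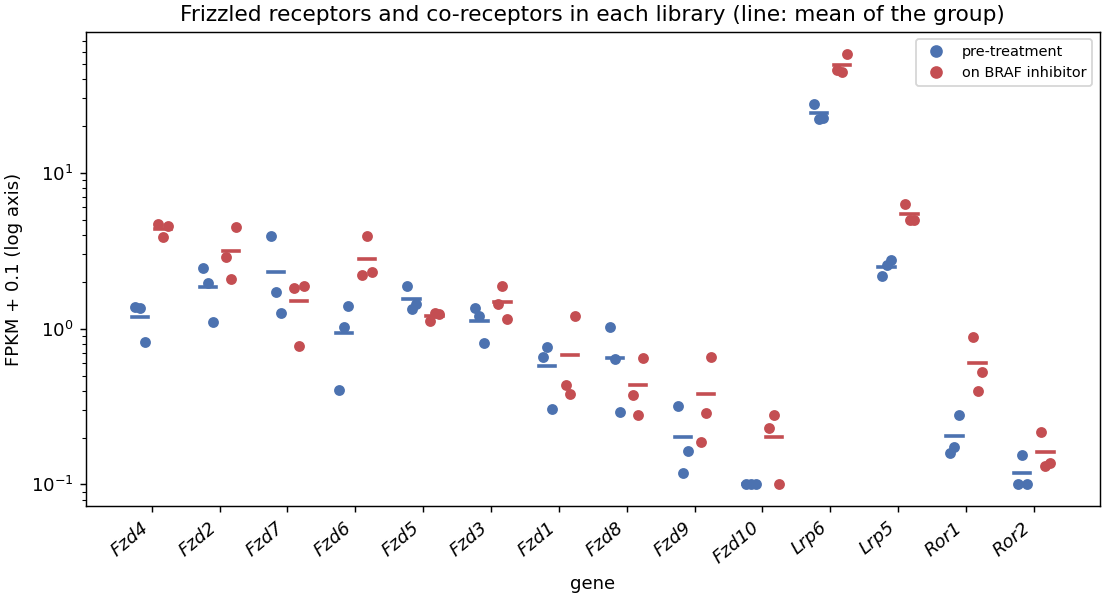
FPKM + 0.1 on a log axis for the 10 Frizzled receptors and 4 co-receptors, with a point for each library and a line at the mean of the group (blue pre-treatment, red on-BRAFi). The red points of Fzd4, Lrp6 and Lrp5 lie above all their blue points, while those of Fzd2, Fzd3 and Fzd7 overlap with the blue ones.

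WNT ligands were expressed at low levels in both groups. Summed over the 19 ligands, the level was 7.83, 6.999 and 4.78 FPKM before treatment and 12.2, 9.46 and 9.48 FPKM on the inhibitor. The 2 ligands that reached the filter were Wnt5a and Wnt10b, and neither passed. Wnt5a, the most abundant ligand, was at 3.44, 3.58 and 1.96 FPKM before treatment and at 4.10, 1.75 and 2.99 FPKM on the inhibitor. These values overlap across their whole range (log2 fold change -0.052, interval from -1.02 to 0.91). Wnt10b, a canonical ligand, was at 1.11 ± 0.292 and 1.75 ± 0.393 FPKM (log2 fold change 0.62, interval from -0.38 to 1.62).

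The other 17 ligands were under the filter. Wnt2 was listed at 0 in all 3 pre-treatment tumours and was at 0.868, 1.23 and 0.495 FPKM on the inhibitor. Wnt16 was listed at 0 in 2 pre-treatment tumours and at 0.0576 FPKM in the third, against 0.548, 0.910 and 0.248 FPKM on the inhibitor. Wnt7b went the other way, at 0.563, 0.454 and 0.524 FPKM before treatment and listed at 0 in 2 treated tumours, with 0.0228 FPKM in on-BRAFi replicate 2. In the fit without the filter these 3 ligands passed (limma, adjusted p = 0.00824 for Wnt2, 0.0312 for Wnt16 and 0.00774 for Wnt7b). They were the only ones to do so of the 33 members under the filter that could be fitted, 2 higher and 1 lower. Over all genes under the filter 3.29% were higher and 0.902% lower in that fit.

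Wnt2b was at 0.529, 0.198 and 0.235 FPKM before treatment and at 1.22, 1.30 and 0.985 FPKM on the inhibitor. Wnt5b, a relative of Wnt5a, was at 0.848, 0.427 and 0.0613 FPKM and then at 1.51, 1.73 and 1.36 FPKM. The groups of both did not overlap, and neither passed in the fit without the filter (adjusted p = 0.0697 and 0.146). Wnt9a was at 0.406 ± 0.266 and 0.887 ± 0.287 FPKM, with overlapping groups, and Wnt4 at 0.383 ± 0.219 and 0.420 ± 0.0491 FPKM. Wnt3a and Wnt7a were listed at 0 in all 6 libraries, and Wnt1, Wnt3, Wnt6, Wnt8a, Wnt8b, Wnt9b, Wnt10a and Wnt11 were at most 0.212 FPKM in any of them.

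**Figure D4:**
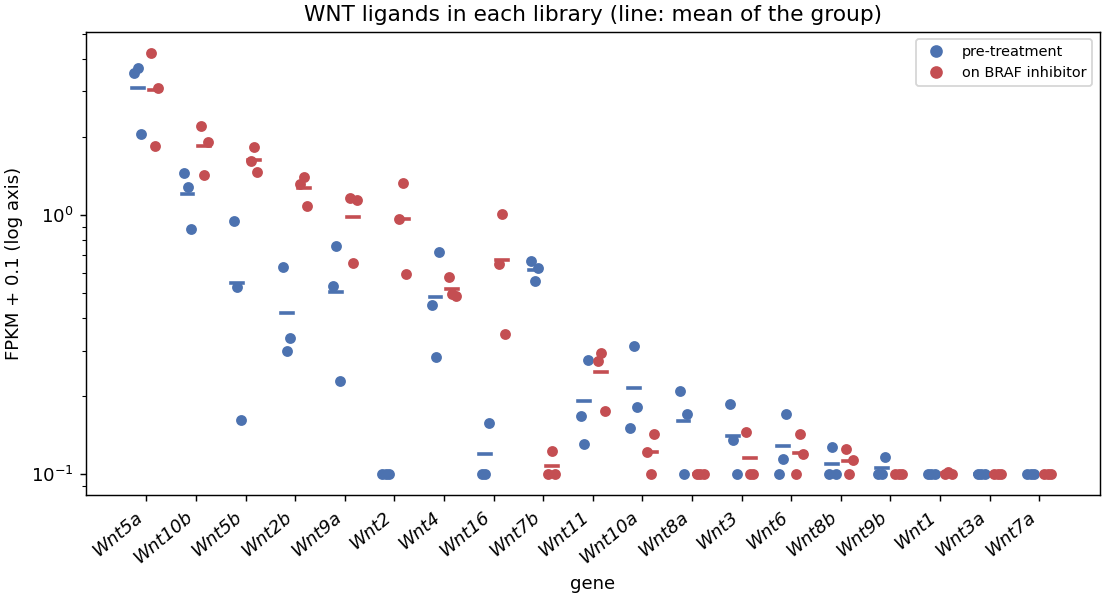
FPKM + 0.1 on a log axis for the 19 WNT ligands in order of their mean, with a point for each library and a line at the mean of the group (blue pre-treatment, red on-BRAFi). Wnt5a is the most abundant and overlaps between the groups, Wnt2 and Wnt16 lie higher on-BRAFi, Wnt7b lies lower, and a point at 0.1 is a value listed at 0.

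R-spondins were at or near 0. Rspo3 was at most 0.726 FPKM, Rspo2 at most 0.350 FPKM, and Rspo1 and Rspo4 were each above 0 in a single treated tumour, at 0.0929 and 0.131 FPKM. Their receptor genes Lgr4 and Lgr5 were at 1.02 ± 0.594 and 0.761 ± 0.415 FPKM before treatment and at 1.05 ± 0.585 and 0.678 ± 0.280 FPKM on the inhibitor. Of the ligases that R-spondins act on, Znrf3 was at 1.96, 0.387 and 0.535 FPKM before treatment and at 0.412, 0.162 and 0.754 FPKM on it, with overlapping groups. Rnf43 was at most 0.0313 FPKM.

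Axin2, a scaffold of the destruction complex and a widely used target gene of beta-catenin, was higher on the inhibitor. It was at 0.750, 0.550 and 0.930 FPKM before treatment and at 2.34, 2.08 and 2.51 FPKM on it. The 3 treated tumours agreed closely and stood apart from the others, and Axin2 rose 2.90-fold (log2 fold change 1.54 ± 0.40, limma, adjusted p = 0.0403). The call was near the threshold: without any library other than pre-treatment replicate 3 the adjusted p was between 0.0556 and 0.0783, and with quantile normalization it was 0.0511. Axin1, the constitutive scaffold, was at 8.39, 3.78 and 4.44 FPKM before treatment and at 5.21, 4.75 and 7.06 FPKM on the inhibitor, with overlapping groups (log2 fold change 0.10, interval from -0.71 to 0.92). Nkd1 and Nkd2, which bind Dishevelled and damp the signal, were low. Nkd1, another known target of the pathway, was at 0.0280 ± 0.0244 and 0.178 ± 0.0930 FPKM, and Nkd2 was at 1.60 ± 1.18 and 0.497 ± 0.389 FPKM, and neither passed.

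Neither transcription factor passed. Tcf7 was at 2.69, 3.48 and 3.51 FPKM before treatment and at 4.35, 3.08 and 2.76 FPKM on the inhibitor, with overlapping groups (log2 fold change 0.055, interval from -0.60 to 0.71). Lef1, a partner of beta-catenin and itself a target of it, was at 0.984, 2.86 and 1.02 FPKM before treatment and at 0.516, 0.176 and 0.0982 FPKM on it. Its groups did not overlap, with treated tumours lower, and it missed the threshold in the fit without the filter (adjusted p = 0.0806). Both genes are also expressed by T cells, which carry CD45 and which the sort was meant to remove. Of 8 T cell markers in the table, 1 was tested and none passed, and their summed level was between 4.89 and 5.08 FPKM before treatment and between 1.94 and 5.01 FPKM on the inhibitor. Cd3e, Cd3g, Cd2 and Cd8a were each listed at 0 in some libraries, and the part of T cells in these values was not tested.

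Across the 52 members above 0 in any library, 16 had all treated tumours above all untreated ones and 5 had them all below. Over the 18060 genes above 0 in any library, these shares were 18.3% and 14.4%. The 5 lower members were Wnt7b, Wnt10a, Fzd5, Nkd2 and Lef1. The plot of fold changes sets the tested members side by side.

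**Figure D5:**
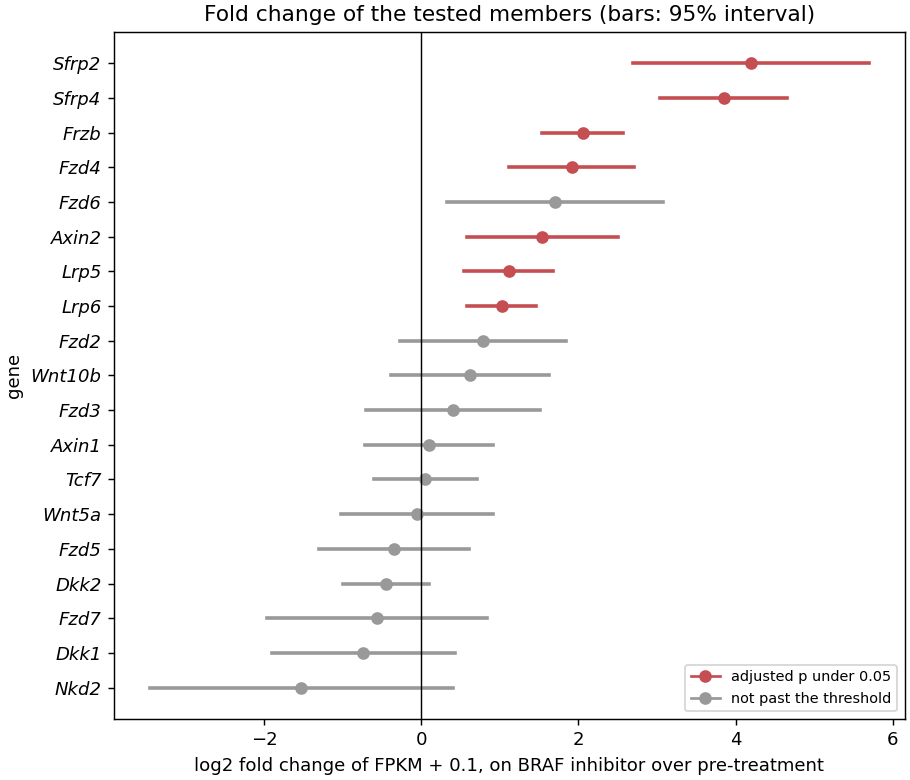
Log2 fold change of FPKM + 0.1, on BRAF inhibitor over pre-treatment, for the 19 tested members (points) with the 95% interval from limma (bars); red marks an adjusted p under 0.05. Sfrp2 and Sfrp4 stand farthest right at 4.20 and 3.85, Frzb and Fzd4 follow near 2, and the intervals of Wnt5a, Tcf7 and Axin1 span 0.

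Other genes of the pathway were followed in a list of secretion, relay, nuclear, polarity and target genes. Of 63 listed genes in the table, 44 were tested, 5 rose and 2 fell, beside the 8.76% that rose and 10.3% that fell over all genes tested. Their median log2 fold change was 0.085. Beta-catenin itself (Ctnnb1) was at 91.9, 110.3 and 102 FPKM before treatment and at 133, 128 and 108 FPKM on the inhibitor. Its groups overlapped and it did not pass (log2 fold change 0.28, interval from -0.11 to 0.67). It passed with quantile normalization and with equal sums over all but short RNA genes (adjusted p = 0.0461 and 0.0161). In the latter setting 3799 of all 12075 genes tested rose. None of the 13 tested genes of the signal relay and destruction complex passed. Wls, which carries WNTs to the cell surface, was abundant in both groups, at 280.0 ± 60.0 and 198 ± 14.3 FPKM. Its groups did not overlap, with treated tumours lower, and it did not pass (log2 fold change -0.48, limma, adjusted p = 0.133). Porcn, the enzyme that adds the lipid to WNTs, was at 1.61 ± 0.414 and 3.64 ± 0.953 FPKM (adjusted p = 0.0617), and it passed with libraries at an equal sum (0.0437) and in limma without a trend (0.0499).

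Reck, which with the receptor GPR124 lets brain endothelial cells respond to WNT7 ligands, rose most of these. It was at 2.91, 3.28 and 2.47 FPKM before treatment and at 9.01, 6.70 and 11.5 FPKM on the inhibitor. The groups were far apart, and Reck rose 3.02-fold (1.59 ± 0.26, limma, adjusted p = 0.00862). The other genes that rose were Bcl9, a co-activator that binds beta-catenin, from 6.02 ± 0.735 to 10.7 ± 0.781 FPKM, and Tcf7l1, a TCF factor that mostly represses, from 7.81 ± 2.00 to 14.4 ± 2.48 FPKM. Vangl1 and Prickle2, of the planar polarity branch, rose from 8.12 ± 0.412 to 14.7 ± 0.773 FPKM and from 6.05 ± 1.26 to 11.2 ± 1.48 FPKM. Without on-BRAFi replicate 1 none of these 5 passed, 2 passed without on-BRAFi replicate 2, without on-BRAFi replicate 3 or without pre-treatment replicate 2, and 3 passed without pre-treatment replicate 3.

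Other genes often listed as beta-catenin targets were followed as well. Ccnd1, which encodes cyclin D1 and is also a target of ERK signalling, was at 86.2, 56.9 and 70.1 FPKM before treatment and at 12.4, 16.4 and 12.5 FPKM on the inhibitor. It fell 5.11-fold, the groups lying far apart (log2 fold change -2.35 ± 0.22, limma, adjusted p = 0.00147). Tnfrsf11b, the decoy receptor osteoprotegerin, fell from 15.8 ± 5.36 to 3.60 ± 2.16 FPKM, a call kept only when on-BRAFi replicate 2 was the library left out and lost with libraries at an equal sum (adjusted p = 0.0887). Of the 8 targets tested besides the members, these 2 fell and none rose, and the median log2 fold change of the 8 was -0.68. Tnfrsf19, a target under the filter, was listed at 0 in all 3 pre-treatment tumours. It was at 0.129, 0.0911 and 0.107 FPKM on the inhibitor. In the fit without the filter Tnfrsf19 was higher (limma, adjusted p = 0.0414), and Tnfrsf11b missed the threshold (adjusted p = 0.0526). Myc was at 17.6, 6.61 and 12.4 FPKM before treatment and at 5.61, 4.43 and 4.24 FPKM on the inhibitor. Its groups did not overlap, with treated tumours lower, and it missed the threshold (limma, adjusted p = 0.0574). Cd44, a cell surface receptor, was at 166 ± 45.0 and 179 ± 41.6 FPKM, and Wisp1, a secreted matricellular protein, was at 16.9 ± 1.48 and 21.0 ± 3.95 FPKM. Mitf, the master factor of melanocytes and a known target of beta-catenin in them, was listed among the melanocyte markers and rose from 5.77 ± 1.40 to 21.5 ± 2.16 FPKM (adjusted p = 0.00302). Of those 10 markers 3 were tested and 1 rose, and their summed level was between 10.6 and 14.4 FPKM before treatment and between 29.6 and 30.8 FPKM on the inhibitor. Without Mitf the sums of the other 9 were 6.17, 5.35 and 7.12 FPKM before treatment and 9.24, 10.3 and 6.25 FPKM on it, and the groups overlapped.

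Other cell types were read from their marker lists. Of 9 pericyte and smooth muscle markers, 3 rose and 1, Cspg4, fell, with sums from 22.3 to 35.5 FPKM before treatment and from 53.0 to 97.9 FPKM on the inhibitor. All 8 cell cycle genes fell, from sums between 237 and 291 FPKM to sums between 25.8 and 50.5 FPKM. The only adipocyte marker tested, Fabp4, rose, while Adipoq was above 0 only in on-BRAFi replicate 2, at 0.323 FPKM. None passed of the markers tested for Schwann cells (5 of 7 tested), skeletal muscle (2 of 7), macrophages (7 of 9), erythroid cells (5 of 6) or leukocytes in general (3 of 5). Erythroid sums were uneven, at 419, 247 and 258 FPKM before treatment and at 2336, 2059 and 267 FPKM on the inhibitor. No keratinocyte marker reached the filter. The part of these cells in the values of the members was not tested.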

How the data were processed

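RNA of sorted CD45-negative cells was made into unstranded TruSeq poly(A) libraries, per the labels' protocols, so a gene's reads cannot be separated from those of an antisense or overlapping partner. The labels call the reads single-end in one place and paired-end in another. The authors deposited 1 table of FPKM with a value for each symbol in each library. Named in the submitters' processing notes are mm9, TopHat2, TopHat, Cuffnorm and Cuffdiff, without their roles or versions. How libraries were scaled to each other, and with which annotation, was not given in the sources used here. Read counts and depth are unknown, so no counting interval is given, and an exact 0 is reported as listed at 0.

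Each of the 6 columns carries a sample title. Of 23940 genes, 5880 were at 0 in every library, and 12075 had a mean of at least 1 FPKM and were fitted as log2(FPKM + 0.1) with limma 3.58.1 in R 4.3.3 (lmFit, eBayes with an intensity trend, two-sided). Benjamini-Hochberg adjustment ran over all genes fitted, with a threshold of 0.05. The fit was tested on simulated data. An exact permutation test of 3 tumours against 3 cannot go below p = 0.1 and was not used. The labels number the tumours but do not say that each came from its own mouse, so a p-value reflects the spread of these tumours only, which may be partly technical.

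The members, the pathway list and the marker lists were chosen with earlier results of these data known. By rule, every library's value was given for members past the threshold or with a group mean of at least 5 FPKM, and members under the filter were named where a library reached 1 FPKM. Other members given in full were chosen after their values were seen. Of the pathway list, genes past the threshold and Ctnnb1, Wls, Porcn, Lgr4 and Lgr5 were named by rule, and of each marker list up to 3 of the most abundant genes. Cd44, Wisp1, Myc, Tnfrsf19, Pdgfra, Pdgfrb, Fap, Thy1, Pdpn, Flt1, Tie1, Plvap, Cspg4 and Adipoq were added after the data were seen. So were the motifs other than the TCF and LEF core. Promoters came from RefSeq by symbol. Alternatives were other pseudocounts, filters, scalings, no trend, leaving out each library in turn and a replicate block.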

Additional observations from a re-analysis of the deposited data

How the results depend on the processing

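The 7 members that rose kept a positive fold change under every alternative run, and 4 of them (Frzb, Sfrp2, Sfrp4 and Lrp6) passed whichever library was left out. Leaving out 1 library gave between 4 and 6 members that rose and none that fell, between 0 and 5 genes of the pathway list that rose and between 1 and 2 that fell, and between 483 and 767 genes in all that rose and between 629 and 887 that fell. Without the filter on low values 1 member (Wnt7b) and 1 gene of the pathway list fell. Rescaling to the same total gave 10 higher and 1 lower genes of the pathway list, and 2009 higher and 518 lower genes in all. Rescaling to the same total without short RNA genes, an alternative added after seeing the data, gave 16 and 1 of the list and 3799 and 682 in all, with 9 members higher.

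No pairing by tumour number was seen: the deviations of same-numbered libraries from their group means correlated at -0.030, 0.012 and -0.090. The deviations within a group are tied to each other through its mean, so this check cannot exclude a pairing. With the tumour number as a replicate block, 5 members rose (Axin2 and Lrp5 did not pass, with adjusted p = 0.118 and 0.0847), 1 gene of the pathway list rose and 2 fell, and 500 genes in all rose and 737 fell. No library correlated best with its own number.

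Directions turned for values that had not passed in either setting. After rescaling to the same total, with and without short RNA genes, log2 fold changes were 0.10 and 0.15 for Dkk2, 0.16 and 0.21 for Fzd5, 0.48 and 0.53 for Wnt5a, and 0.063 and 0.11 for Wls, and that of Fzd7 was 1.5e-05 without short RNA genes. With 1 library left out, they ranged from -0.13 to 0.44 for Axin1, from -0.13 to 0.19 for Tcf7, from -0.32 to 0.27 for Wnt5a and from -0.33 to 0.46 for Lgr4. The cause was not tested. Depth is unknown, which limits what can be said of members under 1 FPKM.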
